A study of Homo sapiens with 12 samples.

Results

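Collagen genes were examined in 2 established human cholangiocarcinoma cell lines, EGI-1 and HUCCT1. They were taken as every gene with a symbol made of COL, a number, A and a number, leaving out antisense RNAs and pseudogenes. This gave 44 of the 60651 genes in the count table, of which 11 encode fibrillar collagens, 6 the basement membrane collagen type IV and 27 other collagens. EGI-1 cells were given vehicle, 0.5 µM decitabine, 200 nM talazoparib or both agents together, and HUCCT1 cells vehicle or 1 µM decitabine, each for 72 h. RNA sequencing covered 12 libraries, 2 in each of the 6 groups. Decitabine is a cytidine analog that is built into DNA and depletes DNA methyltransferases, and talazoparib inhibits poly(ADP-ribose) polymerase and traps it on DNA. No label states that the 2 libraries of a group came from separate cultures, so the p-values cover only the spread between these libraries, which may be technical. In their names, libraries given talazoparib alone bear a 50, although labels and methods state 200 nM. The names of the combination libraries bear no dose. Each line is a single established line, and line, decitabine dose and library batch cannot be told apart between them.

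Collagens are secreted or membrane-bound proteins in which chains wind into a triple helix. Some types combine chains from different genes, and others use the chain of a single gene. Fibrillar collagens form the fibrils of connective tissue, type IV forms the sheet of the basement membrane under epithelia such as the bile duct lining, and the other types anchor, coat or link these structures. In cholangiocarcinoma tissue the dense collagen stroma is known mainly as a product of fibroblasts, whereas a cell line holds the tumor cells alone.

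Library totals ran from 23139065 to 34965627 counts. A single EGI-1 library stood apart in leukocyte markers: combination replicate 2 held 381 counts of PTPRC and 148 of CD3E, against 1 to 7 and 0 to 4 in the other 7 EGI-1 libraries. The summed level of the 5 leukocyte markers was 22.5 CPM (counts scaled to library size) in this library and 2.57 to 4.86 CPM in the other 7. Collagen calls of the combination against vehicle and against each single agent are therefore given with and without it. Most other values of the combination, those of markers and partner genes among them, include it. The 8 biliary epithelial markers, keratins among them, summed to 8330 to 9290 CPM in EGI-1 and 9500 to 16600 CPM in HUCCT1, with no marker at 0 in any library. The 8 fibroblast markers summed to 2.96 to 4.31 CPM in EGI-1, where DCN was at 0 in all 8 libraries, and to 15.7 to 19.6 CPM in HUCCT1.

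Many collagen genes were hardly detected. In EGI-1, 24 of the 44 passed the filter on low counts, and the other 20 reached at most 7 counts in any library. COL4A5, COL6A5 and COL22A1 had 0 counts in all 8 EGI-1 libraries, which allows up to 3 counts over the 2 libraries of a group. In HUCCT1, 29 passed, the 15 others reached at most 13 counts, and COL6A5, COL11A2 and COL19A1 had 0 counts throughout. Among those that did not pass in either line were COL2A1 and COL3A1, fibrillar collagens of cartilage and of skin and vessels. COL4A1, COL6A3 and COL15A1 in EGI-1 and COL1A2, COL5A1, COL6A6, COL15A1 and COL20A1 in HUCCT1 passed only through treated libraries. They could enter the tests only by their level under treatment. The counts of risers and the medians below therefore lean toward rises and are not taken over all collagen genes.

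Levels of different genes were compared as RPKM, counts scaled to library size and to the length of the exons. COL6A1 (GRCh38 chr21:45981770-46005050, plus strand), a chain of the beaded filaments of type VI collagen, was the highest collagen in both lines under vehicle, at 28.6 and 29.1 RPKM in EGI-1 and 66.1 and 80.0 RPKM in HUCCT1. In EGI-1 it was followed by COL18A1, the precursor of endostatin, at 6.95 and 7.15 RPKM and COL7A1, the anchoring fibril collagen that ties epithelium to its bed, at 5.67 and 5.96 RPKM. No neighbours among these 3 overlapped between libraries. COL6A1 made up 48.0% of the summed collagen RPKM of EGI-1 vehicle and 25.8% in HUCCT1.

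In HUCCT1 the second place was held by COL6A2, the partner chain of COL6A1, at 61.1 and 65.8 RPKM, and the third by COL17A1 (chr10:104031286-104085880, minus strand), a transmembrane collagen of hemidesmosomes, at 35.4 and 37.8 RPKM. COL8A1, a short-chain collagen best known from blood vessels and the cornea, followed at 28.6 and 29.1 RPKM, and COL12A1, which coats fibrils, at 16.8 and 17.6 RPKM. In EGI-1 vehicle these 4 genes stood at 0.58 and 0.72, 2.28 and 2.51, 0.153 and 0.167, and 0.862 and 0.875 RPKM. All 4 were lower in EGI-1 than in either HUCCT1 vehicle library.

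Between the 2 vehicle groups, 20 of the 29 collagens tested passed an adjusted p of 0.05 in the edgeR quasi-likelihood test, 18 higher and 2 lower in HUCCT1, where 55.8% of all 25096 genes tested passed (28.5% higher, 27.3% lower). The median log2 difference of the collagens was 1.01, against -0.01 over all genes tested. COL4A5 and COL4A6 passed the filter on low counts only through HUCCT1 libraries, and COL1A2, COL5A1 and COL20A1 only through HUCCT1 decitabine libraries. The counts and the median thus lean toward higher values in HUCCT1, among type IV chains as well. Libraries of the 2 groups did not overlap for 20 collagens that were higher and 4 that were lower in HUCCT1, as was true of 39% and 38.9% of all genes tested. The largest differences with counts in both lines were COL8A1 (log2 difference 7.49 ± 0.13, standard error), COL6A2 (6.60 ± 0.11), COL4A6 (6.33 ± 0.32) and COL5A2 (5.22 ± 0.23). COL4A5, a type IV chain of the basement membranes of kidney and skin, held 3923 and 4159 counts in HUCCT1 vehicle against 0 and 0 in EGI-1, at least 2590-fold higher when 3 counts over the EGI-1 group are taken as the limit. All 6 type IV chains were higher in HUCCT1. The 2 lower ones were COL9A2, a coat collagen of cartilage fibrils (-0.61 ± 0.14), and COL28A1 (-0.94 ± 0.36), whose call was lost with DESeq2 and without either HUCCT1 vehicle replicate 2 or EGI-1 vehicle replicate 1. The call of COL5A1 was lost without HUCCT1 vehicle replicate 2 (edgeR adjusted p = 0.238), and that of COL18A1 without HUCCT1 vehicle replicate 2 or EGI-1 vehicle replicate 1. With upper-quartile scaling the median of all genes moved to -0.13, while the same number of collagens passed. COL1A1, the main chain of type I collagen, stood at 2.94 and 3.29 RPKM in HUCCT1 and 3.15 and 3.37 RPKM in EGI-1, and these libraries overlapped.

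Decitabine is known to lower DNA methylation at CpG dinucleotides, so the bases before the start of genes that moved, or did not move, in HUCCT1 are shown. The sequences come from the RefSeq promoter windows of GRCh38.p14 and were trimmed to stretches that no annotated exon touches. They are written 5′ to 3′ on the strand of the named gene with each CpG in capitals. COL4A1 and COL4A2, on chromosome 13, are transcribed away from each other, with 126 bases between the 2 nearest RefSeq starts. The first line gives 100 of these bases on the strand of COL4A2, chr13:110307158-110307257, with 14 CpG. It is shown because these 2 genes had the largest rises of type IV. COL5A1 (chr9:134641553-134641802, plus strand, 29 CpG) is a CpG-rich start of a gene that rose. COL4A6 (chrX:108439498-108439708, minus strand, 6 CpG) rose from a CpG-poor start. COL4A3 (chr2:227164454-227164623, plus strand, 12 CpG) fell. COL6A2 (chr21:46097862-46098111, plus strand, 28 CpG) and COL17A1 (chr10:104085881-104086130, minus strand, 1 CpG) were both high in vehicle and missed an adjusted p of 0.05 with decitabine when the 4 HUCCT1 libraries were fitted.
COL4A1-COL4A2: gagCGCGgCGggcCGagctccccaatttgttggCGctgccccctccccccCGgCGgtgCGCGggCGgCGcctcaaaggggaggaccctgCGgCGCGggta
COL5A1: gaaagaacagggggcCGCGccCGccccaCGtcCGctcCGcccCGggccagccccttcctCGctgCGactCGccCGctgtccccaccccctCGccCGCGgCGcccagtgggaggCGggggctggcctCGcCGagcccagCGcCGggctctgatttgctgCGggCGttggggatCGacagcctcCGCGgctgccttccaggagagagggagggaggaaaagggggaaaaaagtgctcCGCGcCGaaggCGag
COL4A6: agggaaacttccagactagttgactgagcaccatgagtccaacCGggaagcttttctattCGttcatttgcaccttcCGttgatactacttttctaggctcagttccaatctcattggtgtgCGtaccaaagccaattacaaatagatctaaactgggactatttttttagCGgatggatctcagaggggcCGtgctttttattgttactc
COL4A3: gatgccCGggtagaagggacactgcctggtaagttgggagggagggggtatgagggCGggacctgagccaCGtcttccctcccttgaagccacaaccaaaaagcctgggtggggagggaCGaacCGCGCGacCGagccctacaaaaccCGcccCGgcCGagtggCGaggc
COL6A2: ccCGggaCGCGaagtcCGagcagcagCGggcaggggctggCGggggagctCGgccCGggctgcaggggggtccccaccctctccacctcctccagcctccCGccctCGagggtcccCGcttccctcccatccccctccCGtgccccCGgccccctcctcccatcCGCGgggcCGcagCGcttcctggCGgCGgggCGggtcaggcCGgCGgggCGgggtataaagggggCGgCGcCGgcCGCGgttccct
COL17A1: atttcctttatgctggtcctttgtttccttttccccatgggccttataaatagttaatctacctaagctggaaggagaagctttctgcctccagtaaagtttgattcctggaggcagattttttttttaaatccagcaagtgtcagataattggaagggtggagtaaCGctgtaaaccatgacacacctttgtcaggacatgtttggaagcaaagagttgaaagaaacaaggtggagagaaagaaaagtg

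RefSeq windows of 300 bases, from 250 before to 50 after the start, were matched for 32 of the 44 collagens. Where a gene had several windows, the window nearest its GENCODE start was used. The 32 windows so chosen held a median of 23 CpG, against 14 over all 35116 windows. The motif GGGCGG, searched on both strands, was present in 18 of the 32 windows and in 45% of all windows. CCAAT was present in 10 and in 34.6% of all windows, and TATAAA in 6 and in 11.5%. Matches of different motifs can share bases, and a match describes the letters only.

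Decitabine raised collagen genes of each class in HUCCT1. Among 29 tested collagens 17 rose and 4 fell past an adjusted p of 0.05 (edgeR quasi-likelihood test, Benjamini-Hochberg over 22479 genes), where 33.5% of all genes tested passed (19.6% higher, 13.9% lower). The median log2 fold change of the collagens was 1.18, against 0.00 over all genes tested. Libraries of the 2 groups did not overlap for 22 that were higher and 5 that were lower, as was true of 34.5% and 30.6% of all genes tested. By class, 4 of 5 fibrillar collagens rose and 1 fell, 3 of 6 type IV chains rose and 2 fell, and 10 of 18 others rose and 1 fell. Of these risers, COL1A2, COL5A1, COL15A1 and COL20A1 passed the filter on low counts only through the decitabine libraries. Both the counts and the median thus lean toward rises. The summed level of all collagens was 269.8 and 295.6 RPKM in vehicle and 344.1 and 376.1 RPKM in decitabine, so that the groups did not overlap.

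Type IV chains moved in different directions. COL4A1 (chr13:110148963-110307157, minus strand) held 29 and 35 counts in vehicle and 1560 and 1373 in decitabine, or 0.0652 and 0.0789 RPKM against 3.32 and 3.16 RPKM. COL4A2 (chr13:110305812-110513209, plus strand) stood at 0.316 and 0.343 RPKM in vehicle and 4.66 and 5.33 RPKM in decitabine. These 2 chains build the type IV collagen found in nearly every basement membrane, and their log2 fold changes were 5.48 ± 0.17 (edgeR adjusted p = 3.31e-18) and 3.91 ± 0.14 (edgeR adjusted p = 1.83e-17). The level of COL4A1 per level of COL4A2 was 0.206 and 0.23 in vehicle and 0.714 and 0.594 in decitabine. Their GENCODE gene models overlap by 1346 bases on opposite strands, and whether the counting used strand is not stated, so reads in the overlap cannot be told apart.

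The pair COL4A3 and COL4A4, chains of the basement membrane of the kidney filter and lung, lies head to head on chromosome 2. Between their RefSeq starts lie 418 bases, and GENCODE places the start of COL4A4 248 bases closer to COL4A3. COL4A3 fell from 1.95 and 1.73 RPKM to 0.976 and 1.13 RPKM and COL4A4 from 8.10 and 8.33 RPKM to 6.23 and 6.35 RPKM. Neither gene overlapped between the groups, and the log2 fold changes were -0.82 ± 0.14 and -0.40 ± 0.11 (edgeR adjusted p = 3.98e-05 and 0.00534). An antisense gene, MFF-DT, overlaps COL4A3.

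The pair COL4A5 and COL4A6 on chromosome X has 379 bases between the RefSeq starts and split. GENCODE places the start of COL4A6 39 bases closer to COL4A5. COL4A6 rose from 1.15 and 1.30 RPKM to 4.60 and 4.54 RPKM (log2 fold change 1.89 ± 0.13, edgeR adjusted p = 1.20e-11). COL4A5 stood at 10.9 and 11.6 RPKM in vehicle and 11.2 and 11.9 RPKM in decitabine, with a log2 fold change of 0.03 ± 0.11 and overlapping groups. The level of COL4A5 per level of COL4A6 was 9.44 and 8.88 in vehicle and 2.44 and 2.62 in decitabine.

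**Figure D1:**
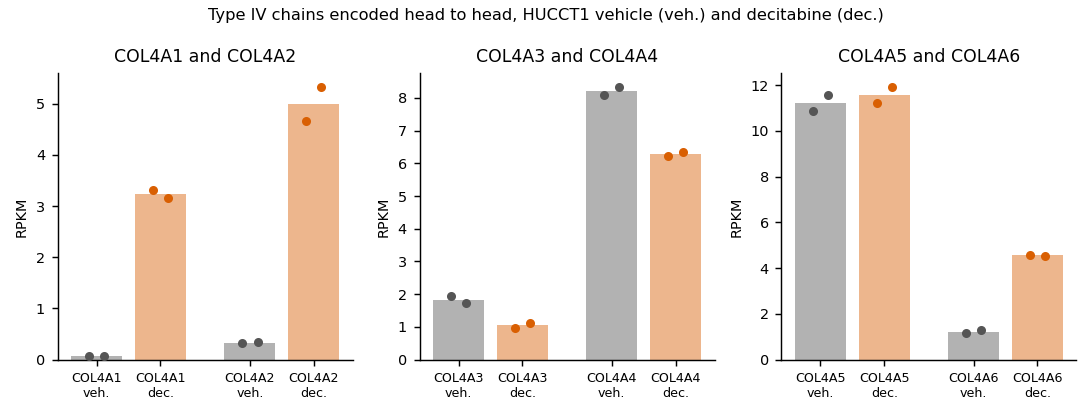
RPKM (linear axes from 0) of the type IV chains in HUCCT1, as 3 pairs of genes that lie head to head, with points for the 2 libraries of a group and bars for their mean. COL4A1 and COL4A2 rose together, COL4A3 and COL4A4 fell, and COL4A6 rose while COL4A5 stood at 10.9 to 11.9 RPKM.

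Among fibrillar collagens, COL1A1 (chr17:50184101-50201632, minus strand) rose from 2.94 and 3.29 RPKM to 17.6 and 21.0 RPKM (log2 fold change 2.62 ± 0.12, edgeR adjusted p = 5.81e-15). Its partner in type I collagen, COL1A2, had 1 and 1 counts in vehicle and 60 and 46 in decitabine, a ratio of 52.1 with a 95% counting interval from 14.1 to 436. COL1A1 was 102 and 146 times as high as COL1A2 per length in the decitabine libraries.

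COL5A1 and COL5A2, 2 chains of type V collagen, which regulates the width of type I fibrils, moved in opposite directions. Another type V chain, COL5A3, did not pass the filter on low counts and was not tested. It held 3 and 0 counts in vehicle and 10 and 7 in decitabine. The ratio was 5.57 with a counting interval from 1.61 to 29.7. COL5A1 held 1 and 11 counts in vehicle and 129 and 156 in decitabine (log2 fold change 4.51 ± 0.42, edgeR adjusted p = 9.14e-09). Its fold change rests on the vehicle library used, with 3.64 without vehicle replicate 1 and 6.94 without vehicle replicate 2. COL5A2 fell from 4.42 and 4.73 RPKM to 1.71 and 1.97 RPKM (-1.33 ± 0.13, edgeR adjusted p = 1.03e-08). The mRNA level of COL5A2 was 4.74 and 4.17 times as high as COL5A1 in decitabine, against 145 times in vehicle replicate 2, where COL5A1 had 11 counts. COL27A1, a fibrillar collagen of growing cartilage, rose from 0.451 and 0.58 RPKM to 1.60 and 1.81 RPKM (1.71 ± 0.15, edgeR adjusted p = 1.39e-09).

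Of type VI, COL6A3 passed the test in the fit of the 4 HUCCT1 libraries. It held 20 and 18 counts in vehicle and 515 and 416 in decitabine (log2 fold change 4.57 ± 0.22, edgeR adjusted p = 1.51e-14). COL6A1 stood at 66.1 and 80.0 RPKM in vehicle and 70.4 and 84.9 in decitabine, and COL6A2 at 61.1 and 65.8 against 72.2 and 79.0. COL6A2 missed the threshold at a log2 fold change of 0.24 ± 0.11 (edgeR adjusted p = 0.0783), but passed with all 12 libraries in the fit (0.25, edgeR adjusted p = 0.0139). COL6A1 exceeded COL6A3, the third chain of the classical type VI monomer, 2160 and 2890 times in vehicle and 94.2 and 130 times in decitabine. COL6A6, an alternative to COL6A3, was at 10 and 9 counts in vehicle and 27 and 11 in decitabine.

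The collagens that coat fibrils include 4 genes that rose. COL16A1 went from 1.46 and 1.58 RPKM to 6.40 and 7.57 RPKM, and COL9A2 from 1.27 and 1.74 to 5.93 and 6.72 RPKM. COL9A3, a chain of the same type as COL9A2, went from 0.259 and 0.259 RPKM to 0.768 and 0.802 RPKM. None of these 3 overlapped between the groups, and their log2 fold changes were 2.19 ± 0.13, 2.06 ± 0.15 and 1.59 ± 0.26 (edgeR adjusted p = 5.66e-13, 7.84e-11 and 2.36e-05). COL20A1 rose from 5 and 2 counts to 39 and 34 (3.30 ± 0.56, edgeR adjusted p = 4.11e-05), with 4.06 without vehicle replicate 1. COL12A1 stood at 17.6 and 16.8 RPKM in vehicle and 19.5 and 17.9 RPKM in decitabine (0.11 ± 0.11, edgeR adjusted p = 0.468).

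Membrane-associated and basement membrane zone collagens followed no single direction. COL7A1 rose from 11.2 and 12.2 RPKM to 24.9 and 28.5 RPKM (log2 fold change 1.18 ± 0.11, edgeR adjusted p = 4.62e-09). COL15A1 and COL18A1 are the 2 multiplexins, proteoglycan collagens of basement membrane zones. COL15A1 rose from 10 and 6 counts to 71 and 73 (3.12 ± 0.39), while COL18A1 fell from 9.35 and 10.5 RPKM to 6.37 and 7.31 RPKM (-0.55 ± 0.11, edgeR adjusted p = 4.79e-04). COL13A1, a transmembrane collagen of adhesion sites, rose from 5.42 and 6.28 RPKM to 8.08 and 8.46 RPKM (0.49 ± 0.11). COL17A1 was at 35.4 and 37.8 RPKM in vehicle and 39.0 and 38.9 RPKM in decitabine (0.08 ± 0.11, edgeR adjusted p = 0.606).

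The type VIII chains also differed. COL8A2 rose from 0.219 and 0.156 RPKM to 1.08 and 1.10 RPKM (log2 fold change 2.53 ± 0.27, edgeR adjusted p = 3.27e-08). COL8A1 stood at 28.6 and 29.1 RPKM in vehicle and 34.3 and 34.4 in decitabine, a log2 fold change of 0.24 ± 0.10 that missed the threshold (edgeR adjusted p = 0.0765) but passed with all 12 libraries in the fit (0.25, edgeR adjusted p = 0.0227). The level of COL8A1 per level of COL8A2 fell from 131 and 187 to 31.6 and 31.3. COL28A1, a collagen of peripheral nerve, held 25 and 17 counts in vehicle and 46 and 45 in decitabine (1.08 ± 0.36, edgeR adjusted p = 0.0224), and this call was lost with DESeq2 and without vehicle replicate 2 or decitabine replicate 2.

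**Figure D2:**
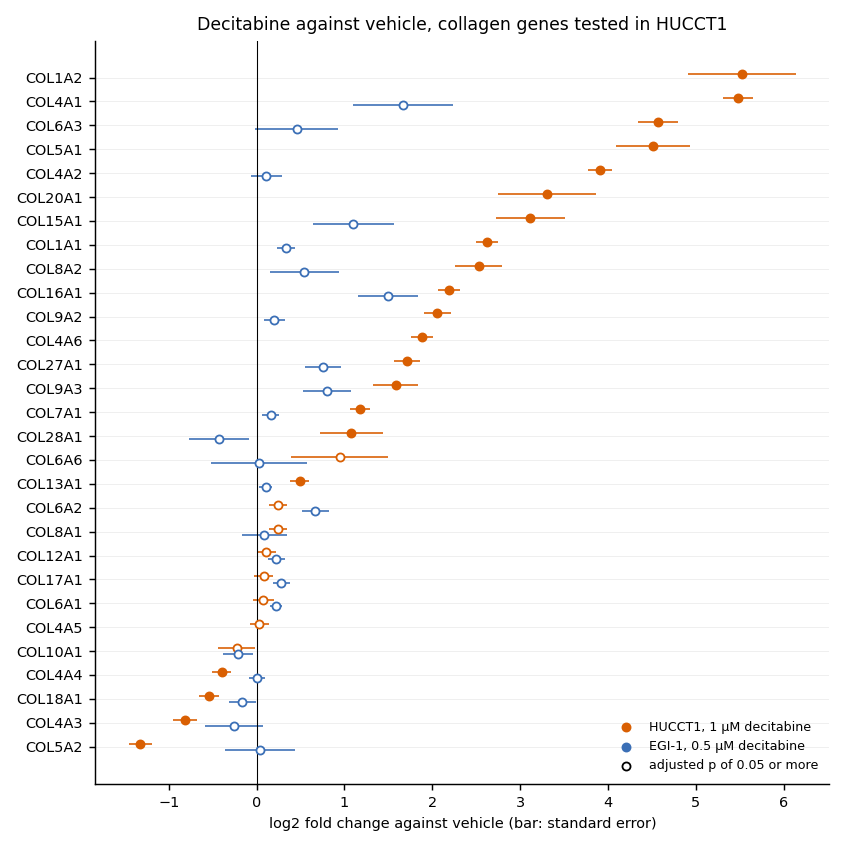
Log2 fold change against vehicle of the 29 collagens tested in HUCCT1 (orange) and, where tested, in EGI-1 (blue), ordered by the HUCCT1 value, with bars for the standard error and filled points for an adjusted p under 0.05. HUCCT1 values run from -1.33 to 5.53 with 17 filled points above 0 and 4 below, and no EGI-1 point is filled.

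Markers of other cell types moved in the same HUCCT1 libraries. All 5 endothelial markers (PECAM1, VWF, CDH5, KDR and TEK) rose, where 19.6% of all genes tested rose and 13.9% fell. Their sum went from 5.73 and 4.29 CPM to 28.1 and 29.1 CPM. Of the fibroblast markers PDGFRA, PDGFRB and THY1 rose and LUM fell, DCN held 0 and 0 counts in vehicle and 12 and 7 in decitabine, and the sum of the 8 stood at 19.6 and 15.7 CPM in vehicle and 17.7 and 15.9 CPM in decitabine. CD3E went from 0 and 1 counts to 17 and 23, while PTPRC was at 3 and 4 counts in vehicle and 3 and 3 in decitabine. CDH5, KDR, TEK, PDGFRA, THY1 and CD3E could pass the filter on low counts only with the decitabine libraries, so they lean toward rises. Of the biliary markers KRT7, KRT8, KRT18 and KRT19 fell and CDH1 and MUC1 rose, and their sum fell from 14800 and 16600 to 9500 and 10900 CPM. The part of these shifts in the collagen values was not tested, and in bulk RNA fewer cells of a type and less RNA per cell cannot be told apart.

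The CpG content of the promoter windows is set beside these changes as a description. The 13 risers with a window held 1 to 45 CpG with a median of 22, and 10 of them had at least 14. The 3 collagens that fell and had a window held 24 to 46 CpG. The 6 that passed no threshold held 1 to 36. COL4A1, COL4A2, COL8A2 and COL15A1 each had 45 CpG and rose, but COL18A1 with 46 fell, and COL6A3 with 4 and COL4A6 with 7 rose. The windows of COL4A1 and COL4A2 overlap and share most of their bases. COL18A1 and COL4A6 each have another window, with 10 and 5 CpG, and which start HUCCT1 used was not tested.

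**Figure D3:**
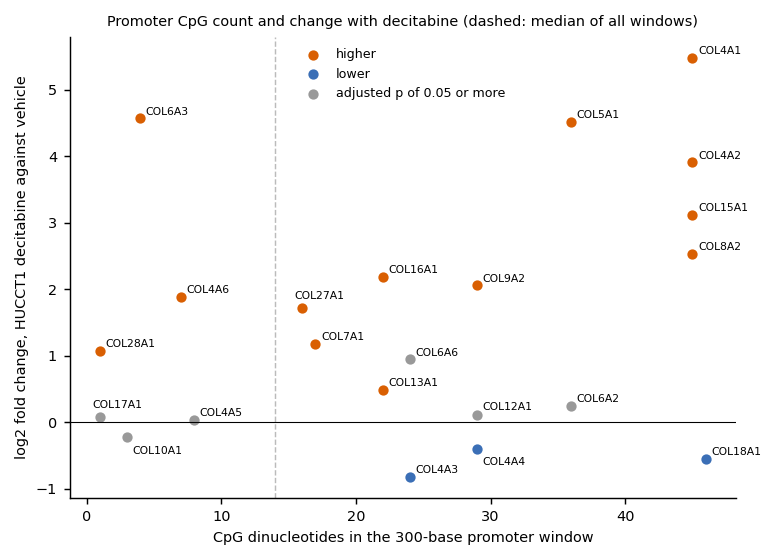
Number of CpG dinucleotides in the promoter window of 300 bases (x axis) and log2 fold change with decitabine in HUCCT1 (y axis) for the 22 tested collagens with a window, coloured by call, the dashed line marking the median of 14 CpG over all windows. Risers lie on both sides of that line, from 1 to 45 CpG, and the 3 collagens that fell lie at 24 to 46 CpG.

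In EGI-1, no collagen passed the threshold with 0.5 µM decitabine alone (edgeR), where 0.544% of 22406 genes tested passed (0.518% higher, 0.0268% lower). At an unadjusted p under 0.05, 10 of 24 were higher and 0 lower, against 6.03% and 3.11% of all genes tested, and DESeq2 also called 0. COL16A1 had 13 and 18 counts in vehicle and 36 and 50 in decitabine (log2 fold change 1.5 ± 0.34, edgeR adjusted p = 0.0621). COL6A2 stood at 0.72 and 0.58 RPKM in vehicle and 1.04 and 1.02 RPKM in decitabine (0.67 ± 0.15, edgeR adjusted p = 0.0683). Libraries of the 2 groups did not overlap for 14 higher and 2 lower collagens, as was true of 19.3% and 19.4% of all genes tested. The count of calls moved with single libraries. Without decitabine replicate 1 there were 5 calls, all higher (COL1A1, COL6A1, COL7A1, COL9A3 and COL16A1), and without decitabine replicate 2 there was 1, COL18A1, lower. Without the filter on low counts COL1A1, COL6A2 and COL16A1 passed. The median log2 fold change of the 24 collagens was 0.21, against 0.00 over all genes tested.

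Talazoparib alone raised 6 of 24 collagens and lowered 0, where 4.12% of all genes tested passed (2.83% higher, 1.29% lower). The median of the collagens was 0.30, against 0.00 over all genes tested. Groups did not overlap for 14 higher and 2 lower collagens, as was true of 24.5% and 24.7% of all genes tested. COL8A1 stood at 0.167 and 0.153 RPKM in vehicle and 0.372 and 0.298 RPKM in talazoparib (log2 fold change 1.06 ± 0.24, edgeR adjusted p = 0.0150). COL6A2 rose from 0.72 and 0.58 to 1.18 and 1.18 RPKM (0.86 ± 0.15, edgeR adjusted p = 0.0026), and COL27A1 from 0.136 and 0.126 to 0.236 and 0.229 RPKM (0.83 ± 0.20). COL4A4, COL17A1 and COL6A1 rose by 0.38, 0.37 and 0.29 on the log2 scale. COL6A2 kept its call without vehicle replicate 1, talazoparib replicate 1 or talazoparib replicate 2, and lost it without vehicle replicate 2 (log2 fold change 0.71, edgeR adjusted p = 0.0958). The number of calls was 0 without vehicle replicate 2, 1 without vehicle replicate 1, 1 without talazoparib replicate 1 and 2 without talazoparib replicate 2.

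The combination raised 14 of 24 collagens and lowered 0 against vehicle, where 18.7% of all genes tested passed (11.1% higher, 7.61% lower). The median of the collagens was 0.49, against -0.02 over all genes tested. Over all genes, 2489 rose and 1705 fell, and with upper-quartile scaling 2177 rose and 2244 fell, while 14 collagens passed under both. Groups did not overlap for 17 higher and 3 lower collagens, as was true of 29.6% and 30.7% of all genes tested. By class, 2 of 3 fibrillar collagens, 1 of 4 type IV chains and 11 of 17 others rose. COL15A1, among the others, passed the filter on low counts only through treated libraries. The summed collagen level was 60.04 and 60.14 RPKM in vehicle, 62.4 and 72.4 in decitabine, 72.6 and 68.9 in talazoparib and 86.0 and 78.3 in the combination. Without combination replicate 2, the library with leukocyte counts, 11 of the 14 calls were kept. COL8A1, COL9A2 and COL15A1 then missed the threshold (edgeR adjusted p = 0.0504, 0.0946 and 0.0632).

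Of the fibrillar class, COL1A1 stood at 3.37 and 3.15 RPKM in vehicle, 3.63 and 4.56 in decitabine, 4.35 and 4.05 in talazoparib and 5.48 and 4.73 in the combination (log2 fold change of the combination 0.64 ± 0.10, edgeR adjusted p = 3.26e-04). COL27A1 went from 0.136 and 0.126 RPKM in vehicle to 0.379 and 0.359 in the combination, with 0.202 and 0.24 in decitabine (1.48 ± 0.19, edgeR adjusted p = 3.39e-05). COL1A2 had 0 to 3 counts in every EGI-1 library, below the filter. Without combination replicate 2 the changes of COL1A1 and COL27A1 were 0.75 and 1.53.

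Of the type IV chains, COL4A4 rose from 1.36 and 1.44 RPKM in vehicle to 1.89 and 1.89 in the combination (log2 fold change 0.43 ± 0.09, edgeR adjusted p = 0.00369), with 1.43 and 1.36 in decitabine and 1.86 and 1.77 in talazoparib. The call was lost without vehicle replicate 1. COL4A1 had 3 and 7 counts in vehicle, 18 and 14 in decitabine, 4 and 10 in talazoparib and 14 and 16 in the combination. The fold change of the combination was 1.64 ± 0.57 and missed the threshold (edgeR adjusted p = 0.0561). It passed with all 12 libraries in the fit (1.65, edgeR adjusted p = 0.0109) and with the 4 libraries of both arms alone (1.65, edgeR adjusted p = 0.0391). COL4A2, its head-to-head neighbour, stood at 0.177 and 0.190 RPKM in vehicle and 0.246 and 0.241 in the combination, and missed the threshold. It was at 0.203 and 0.191 RPKM in decitabine and 0.211 and 0.186 in talazoparib, so both combination libraries were the highest.

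In the beaded filament class, COL6A2 stood at 0.72 and 0.58 RPKM in vehicle, 1.04 and 1.02 in decitabine, 1.18 and 1.18 in talazoparib and 1.78 and 1.87 in the combination (log2 fold change 1.48 ± 0.15, edgeR adjusted p = 2.0e-06). COL6A1 stood at 28.6 and 29.1, 31.1 and 35.9, 36.0 and 34.7, and 42.0 and 37.7 RPKM in the same order (0.46 ± 0.07, edgeR adjusted p = 2.01e-04). Both were highest in the combination libraries. COL6A1 exceeded COL6A2 39.8 and 50.2 times in vehicle and 23.5 and 20.2 times in the combination, against 1.08 and 1.22 times in HUCCT1 vehicle.

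COL17A1 and COL7A1, both of the epithelial attachment zone, rose with the combination. COL17A1 stood at 2.51 and 2.28 RPKM in vehicle, 2.79 and 3.02 in decitabine, 3.14 and 3.07 in talazoparib and 4.62 and 4.40 in the combination (log2 fold change 0.90 ± 0.09, edgeR adjusted p = 2.56e-06). COL7A1 stood at 5.96 and 5.67, 5.78 and 7.16, 6.53 and 6.32, and 9.36 and 8.07 RPKM in that order (0.57 ± 0.09, edgeR adjusted p = 3.58e-04). In both genes the lowest combination library lay above the highest library of the other 3 arms. COL13A1 and COL18A1, grouped with them in the account of HUCCT1 above, missed the threshold, at log2 fold changes of 0.16 ± 0.08 and -0.08 ± 0.16.

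The remaining risers of the combination were lower in level. COL16A1 went from 13 and 18 counts to 45 and 52 (log2 fold change 1.72 ± 0.34), and COL15A1 from 16 and 5 counts to 28 and 38 (1.72 ± 0.44). The value of COL15A1 was 2.70 without vehicle replicate 1 and, no longer past the threshold, 1.18 without vehicle replicate 2. COL9A3 rose from 0.251 and 0.245 RPKM to 0.574 and 0.618 RPKM (1.26 ± 0.27), COL9A2 from 2.23 and 2.37 to 3.04 and 3.15 RPKM (0.42 ± 0.12), and COL12A1 from 0.875 and 0.862 to 1.21 and 1.28 RPKM (0.51 ± 0.09). Both type VIII chains rose, COL8A1 from 48 and 40 counts to 72 and 108 (1.10 ± 0.24) and COL8A2 from 20 and 15 counts to 40 and 35 (1.19 ± 0.38). COL9A2 lost its call when any single library of either arm was left out, and COL8A2 with DESeq2 and without vehicle replicate 1, vehicle replicate 2 or combination replicate 1. COL8A1 also lost its call without vehicle replicate 2.

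**Figure D4:**
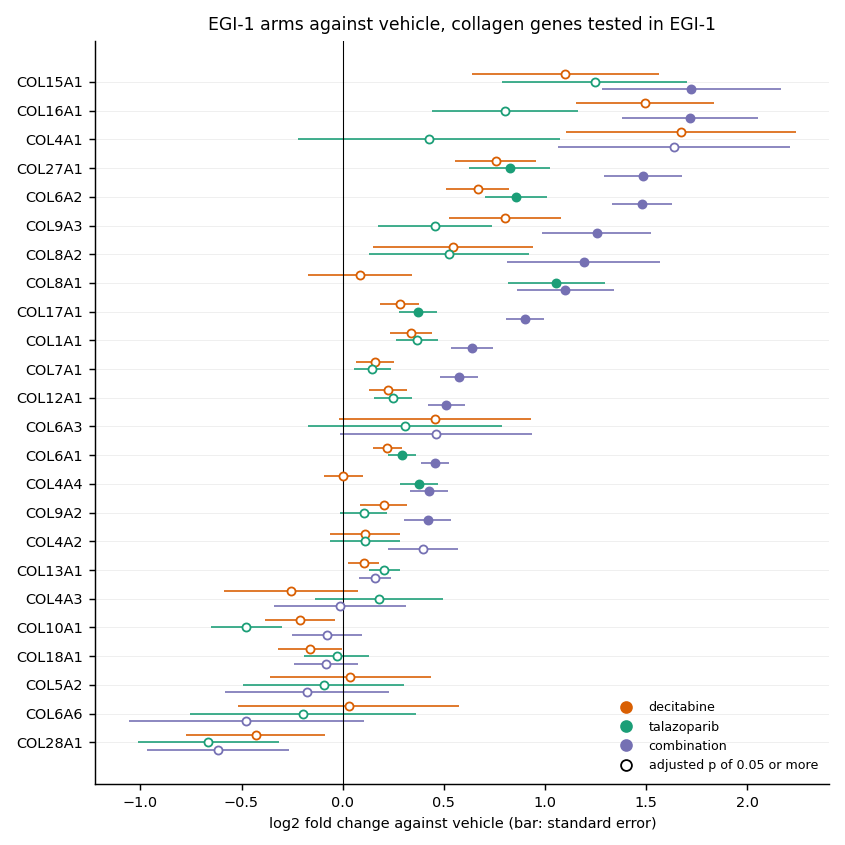
Log2 fold change against EGI-1 vehicle of the 24 collagens tested, for decitabine (orange), talazoparib (green) and the combination (purple), ordered by the combination, with bars for the standard error and filled points for an adjusted p under 0.05. Filled points number 0 for decitabine, 6 for talazoparib and 14 for the combination, all above 0.

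Set against each single agent, the combination was higher for a few collagens. Against decitabine, 6 of 24 were higher and 0 lower, where 7.68% of all genes tested passed (4.42% higher, 3.26% lower). Groups did not overlap for 15 higher and 1 lower collagen, as was true of 24.8% and 22.2% of all genes tested. The 6 called were COL8A1 (1.01 ± 0.24), COL6A2 (0.81 ± 0.14), COL27A1 (0.73 ± 0.18), COL17A1 (0.62 ± 0.09), COL4A4 (0.42 ± 0.09) and COL7A1 (0.41 ± 0.09). Without combination replicate 2, COL6A2, COL7A1 and COL17A1 kept their calls. COL7A1 lost its call without combination replicate 1, COL8A1 without decitabine replicate 2, and COL27A1 without decitabine replicate 1 or combination replicate 1. Against talazoparib, 3 of 24 were higher and 0 lower, where 1.92% of all genes tested passed (1.36% higher, 0.567% lower). Groups did not overlap for 15 higher and 0 lower collagens, as was true of 23% and 20.3% of all genes tested. The 3 called were COL6A2 (0.62 ± 0.14), COL17A1 (0.53 ± 0.09) and COL7A1 (0.43 ± 0.09), and COL7A1 and COL17A1 kept their calls without combination replicate 2. This count was 0 without talazoparib replicate 2 and 1 without talazoparib replicate 1 or without combination replicate 1.

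The change with decitabine alone against vehicle and the change when decitabine was added to talazoparib use no library in common. Of the 24 collagens, 17 were above 0 in both and 2 below 0 in both, against 31.5% and 32.3% of all genes tested. The combination mean was the highest of the 4 EGI-1 arms for 16 of 24, against 33.2% of all genes tested. COL4A1 passed the filter on low counts only through decitabine and combination libraries, and COL6A3 and COL15A1 only through treated libraries. COL6A6 passed only through vehicle and decitabine libraries. For these genes the filter favored some arms in advance, so these counts are not free of it. When the combination was compared with both single-agent log2 changes added up, no collagen passed (edgeR), where 0.161% of all genes tested did (0.00893% higher, 0.152% lower). At an unadjusted p under 0.05 there was 1 of 24, COL10A1 (0.61 ± 0.25), and DESeq2 also called 0. With both directions counted, that share was near the share of all genes tested, so COL10A1 does not stand out from the background. VWF and CDH5 of the endothelial markers and LYZ of the leukocyte markers rose with the combination as well, the endothelial sum going from 19.8 and 21.2 CPM to 28.7 and 29.9 CPM, and their part in the collagen values was not tested. LYZ held 25 and 19 counts in vehicle and 38 and 84 in the combination, the 84 in replicate 2, the library with leukocyte counts.

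Across the lines, 8 collagens were higher both with decitabine in HUCCT1 and with the combination in EGI-1, which is 47.1% of the 17 risers in HUCCT1 and 57.1% of the 14 in EGI-1. Over all genes the same shares were 24% of 4404 risers and 42.5% of 2489, and the difference was not tested. They were COL1A1, COL7A1, COL8A2, COL9A2, COL9A3, COL15A1, COL16A1 and COL27A1. COL4A4 fell in HUCCT1 and rose in EGI-1. The effect of decitabine alone differed between the lines for 14 of 29 collagens by the interaction test (edgeR), 12 higher and 2 lower in HUCCT1, where 15.9% of all genes tested passed (8.74% higher, 7.2% lower). The count of 14 leans toward HUCCT1, as COL1A2 (1 of the 12), COL5A1 and COL20A1 entered only through HUCCT1 decitabine libraries. This count was 8 without EGI-1 vehicle replicate 1 and 9 without EGI-1 vehicle replicate 2, and COL1A2 and COL4A1 were among those lost without the latter.

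The genes that make, fold, cross-link and bind collagen moved in both directions. In HUCCT1 with decitabine, where 19.6% of all genes tested rose and 13.9% fell, 6 of 22 modifying enzymes and chaperones rose and 5 fell, with a median log2 fold change of 0.10. Of the 12 processing and cross-linking genes tested, 7 rose and 1 fell (median 0.50), of 7 collagen receptors 2 rose and 1 fell (median 0.12), and of 14 basement membrane partners 7 rose and 4 fell (median 0.16). Among those past the threshold, the 3 largest rises were NID2, a nidogen that links type IV collagen to laminin (0.856 and 1.06 CPM in vehicle, 14 and 17.7 CPM in decitabine), TLL1, a procollagen protease (0.0988 and 0.165 against 2.09 and 2.36 CPM), and LAMA1, a laminin chain (0.79 and 0.529 against 6.90 and 7.09 CPM). Their log2 fold changes were 4.04 ± 0.21, 4.03 ± 0.45 and 3.39 ± 0.27. No group overlapped for these genes. TLL1 lay under the filter minimum of 0.292 CPM in both vehicle libraries, so it entered the test only through the decitabine libraries. The same filter applied to all these gene lists in both lines, so their counts of risers and medians can also lean toward rises. The 3 largest falls were ADAMTS14, which trims the amino end of procollagen (-1.06 ± 0.15), CRTAP, a part of the prolyl 3-hydroxylase complex (-0.74 ± 0.11), and LAMA4, another laminin chain (-0.70 ± 0.13).

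In EGI-1 with the combination, where 11.1% of all genes tested rose and 7.61% fell, 10 of 21 modifying enzymes and chaperones rose and 1 fell (median 0.27), 3 of 11 processing and cross-linking genes rose (median 0.35), 3 of 9 receptors rose (median 0.03), and 4 of 13 basement membrane partners rose and 2 fell (median 0.11). Among those past the threshold, the 3 largest rises were MRC2, a receptor that takes up collagen (0.328 and 0.431 CPM in vehicle, 1.27 and 0.724 CPM in the combination, log2 fold change 1.36 ± 0.43), FKBP10, a collagen chaperone (1.14 ± 0.27), and ADAMTS14 (1.05 ± 0.30). The 3 falls were LAMA5, a laminin chain (-0.54 ± 0.10), AGRN, the proteoglycan agrin (-0.28 ± 0.09), and MIA2, which acts in the export of large cargo (-0.24 ± 0.08). ADAMTS14 thus fell with decitabine in HUCCT1 and rose with the combination in EGI-1.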

How the data were processed

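RNA of 12 libraries was sequenced, 2 for each of 6 groups. The authors deposited raw counts per gene in a single table, with 60651 genes of which 60437 matched a symbol. Per the labels, fastp, Trim Galore, HISAT2 and featureCounts were used on GRCh38, whereas the methods name STAR and RSEM for EGI-1 and do not describe HUCCT1. The strand setting, the annotation and how multiply mapped reads were counted are not given in the sources used here. Kits and RNA isolation also differ between labels and methods.

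Counts were tested in edgeR 4.0.16 (R 4.3.3, limma 3.58.1) with robust quasi-likelihood fits, TMM scaling, filterByExpr by group and Benjamini-Hochberg adjustment over all genes tested at 0.05. EGI-1 libraries were fitted together, HUCCT1 libraries together, and all 12 for comparisons between lines. The ± after a log2 fold change is its standard error, taken from the fold change and its F statistic. Fits recovered known changes in simulated counts. With 2 libraries against 2 an exact permutation test cannot go below p = 0.333. CPM and RPKM used TMM factors of all 12 libraries and exon lengths of GENCODE on GRCh38. Intervals for ratios of few counts, at 95%, and the floor of 3 counts cover counting error only. Alternatives were other scalings, no filter, DESeq2 1.42.0, replicate blocks, other sets of libraries in the fit and leaving out each library. The members and gene lists were chosen with earlier results of these data known. Collagens past the threshold in a drug comparison, the 3 highest of each vehicle group and the 3 largest rises and falls of the partner lists were named.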

Additional observations from a re-analysis of the deposited data

Results flagged for a closer look

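The effect of decitabine differed between the lines for 14 collagens by the interaction test of the log2 fold change in HUCCT1 minus that in EGI-1 (edgeR, adjusted over all genes tested). Dose, medium and library batch differ with the line and cannot be told apart from it. The difference was 3.82 for COL4A1 and 3.81 for COL4A2 (adjusted p = 9.36e-05 and 3.68e-12), the chains of the common type IV collagen. COL6A3 differed by 4.12 (adjusted p = 4.48e-06; 3.22 without EGI-1 vehicle replicate 2) and COL1A1 by 2.30 (adjusted p = 1.27e-09). COL1A2 gave 9.25 (adjusted p = 0.00614), a fitted value that rests on 0 to 3 counts in the EGI-1 libraries and is no measure of size. COL8A2, COL9A2 and COL15A1 differed by 2.00, 1.87 and 2.03. COL28A1, COL7A1, COL27A1 and COL13A1 differed by 1.53, 1.03, 0.97 and 0.40. Lower in HUCCT1 were COL5A2, by -1.36, and COL4A4, by -0.38. Without EGI-1 decitabine replicate 1 the value of COL5A2 was -0.80 (adjusted p = 0.294) and that of COL28A1 2.18. COL4A4, COL13A1 and COL28A1 each kept the call under 6 of 13 alternatives, and COL15A1, at 1.04 without EGI-1 vehicle replicate 1, under 8 of 13. Without EGI-1 vehicle replicate 2 the calls of COL1A2 and COL4A1 were lost (COL4A1 adjusted p = 0.075), and without EGI-1 vehicle replicate 1 those of COL5A2, COL8A2 and COL27A1.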

How the results depend on the processing

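No collagen changed its direction past the threshold under any alternative run. For HUCCT1 decitabine 20 to 23 collagens passed, and for the EGI-1 combination against vehicle 10 to 15. For EGI-1 decitabine the count of 0 became 3 without the filter on low counts and 2 with all 12 libraries in the fit, and 0 to 5 when a library was left out. For talazoparib, leaving out a library gave 0 to 2, and for the combination against talazoparib 0 to 2. For the difference between lines it gave 8 to 14. The cause was not tested. A fit without a library leaves 1 in its group, which is assumed to vary like the others. Depth limits the collagens with 18 or fewer counts per vehicle library, COL4A1, COL6A3 and COL16A1 in EGI-1, COL6A6 and COL15A1 in both lines, and COL1A2, COL5A1 and COL20A1 in HUCCT1.

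No label ties the replicate numbers of the titles to a shared culture or batch, so the libraries were not paired. Deviations of same-numbered libraries correlated at -0.186 to 0.158 over the 6 pairs of EGI-1 groups and at 0.222 in HUCCT1. With the title number as a replicate block, talazoparib called 3 collagens, the combination against talazoparib 1, and HUCCT1 decitabine 23, with COL6A2 and COL8A1 added (edgeR adjusted p = 0.000625 and 0.000799), and the count stayed at 14 for the combination against vehicle. With the lettered and numbered series of library names as the block, the counts were 4, 3 and 14 in EGI-1.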
